A study of Homo sapiens with 8 samples.

Results

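C/D box small nucleolar RNAs (snoRNAs) transcribed outside the imprinted clusters were followed from MEC-1 cells into the exosomes those cells release. The group was taken by name: every row whose symbol starts with SNORD, without the imprinted 14q32 and 15q11 families, the U3, U8 and U13 processing snoRNAs, and SNORD2, SNORD100 and SNORD101. That left 120 of the 2709 non-coding RNA rows counted, and the row lengths ran from 58 to 237 nt with a median of 80 nt. MEC-1 is a B-cell line that was established from chronic lymphocytic leukaemia, and exosomes are small membrane vesicles that cells shed. The cells, for which the labels name no treatment, were grown in bioreactor flasks in medium with fetal calf serum, which had been cleared of its own exosomes except in the upper medium compartment. Vesicles were collected from the supernatant by serial centrifugation with a density cushion, RNA under 200 nt was extracted from vesicles and parental cells, and small RNA libraries were sequenced. There were 5 exosome and 3 cell libraries, all from this 1 line. The labels do not say whether replicates were grown as separate cultures, so the p-values reflect the spread between libraries, which could be technical.

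C/D box snoRNAs pair with ribosomal or spliceosomal RNA and guide ribose methylation of the paired base by fibrillarin, which works in a particle with NOP56, NOP58 and SNU13. The C box near the 5′ end and the D box near the 3′ end fold together and hold these proteins, which also protect the RNA ends. Most are not transcribed on their own but are trimmed out of excised introns of host genes, many of which encode ribosomal proteins or proteins of ribosome assembly, and they then collect in the nucleolus. Members of 1 host gene therefore start from 1 transcript.

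The 8 sequences that carry the contrasts described below are given 5′ to 3′ as DNA from the GENCODE v29 transcripts (GRCh38) with the C box TGATG and the D box CTGA in capitals. The first set comes from introns of the ribosomal protein gene RPL13A, and its members went from a large fall to no detectable change. At GRCh37 on the plus strand, SNORD32A lies at chr19:49993222-49993305, SNORD33 at chr19:49993872-49993956, SNORD34 at chr19:49994161-49994231 and SNORD35A at chr19:49994432-49994517.
SNORD32A: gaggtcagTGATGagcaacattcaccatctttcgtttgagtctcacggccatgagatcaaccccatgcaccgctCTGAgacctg
SNORD33: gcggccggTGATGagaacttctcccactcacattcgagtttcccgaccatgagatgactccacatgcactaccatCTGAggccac
SNORD34: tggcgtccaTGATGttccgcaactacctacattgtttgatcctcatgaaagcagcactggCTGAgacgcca
SNORD35A: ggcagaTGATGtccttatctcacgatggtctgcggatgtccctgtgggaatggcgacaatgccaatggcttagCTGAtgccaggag
The next set is from C19orf48, the host with the largest fall, on the minus strand at chr19:51302699-51302789 (SNORD88A), chr19:51302289-51302379 (SNORD88B) and chr19:51305585-51305675 (SNORD88C). They are close copies, and SNORD88A matched SNORD88B at 91.2% of aligned bases and SNORD88C at 87.9%.
SNORD88A: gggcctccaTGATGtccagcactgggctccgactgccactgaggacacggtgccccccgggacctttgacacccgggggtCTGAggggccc
SNORD88B: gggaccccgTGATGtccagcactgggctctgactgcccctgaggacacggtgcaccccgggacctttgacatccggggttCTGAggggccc
SNORD88C: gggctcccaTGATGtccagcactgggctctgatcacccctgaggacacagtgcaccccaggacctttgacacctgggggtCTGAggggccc
The last is SNORD89, from RNF149 at chr2:101889398-101889511 on the minus strand, the only member that was higher in exosomes.
SNORD89: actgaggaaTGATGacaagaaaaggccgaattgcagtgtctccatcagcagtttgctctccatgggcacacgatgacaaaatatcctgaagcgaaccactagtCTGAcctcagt
The RPL13A snoRNAs share their boxes but differ elsewhere: SNORD32A matched SNORD33 at 70.1% of aligned bases, and the other pairs of this host matched at 53.0% to 56.2%. Of the 112 members with a GENCODE transcript of the same length as their row, 90.2% held TGATG in the first 20 bases and CTGA in the last 20 on the transcript strand. None of 142 H/ACA snoRNA transcripts (SNORA genes, the other main snoRNA class) held both.

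The exosome libraries held 23353820 to 32436286 counts and the cell libraries 25675636 to 57323598, and at least 1 read was counted for 113 or 114 members in exosome 1 to 4, fewer in exosome 5 and 115 to 117 in the cells. Libraries carried no molecular identifiers. Of the B-lineage miRNA genes checked, MIR181A1 stood at 128 to 409 CPM (counts per 1000000 of the scaled library) in cells and 279 to 449 in exosomes, and MIR150 at 2.40 to 17.98 and 5.05 to 55.1. MIR142, MIR155 and MIR146A were not analysed here. MIR122, a liver miRNA that marks serum or other tissue, was at 19.9 to 114 CPM in exosomes against 0.424 to 2.00 in cells. MIR143, MIR126 and MIR203, markers of stroma, endothelium and epithelium, reached 26.9, 53.7 and 4.40 CPM in exosomes and 0.933, 6.30 and 0.165 in cells. RN7SK, a nuclear RNA, was at 168 to 272 CPM in exosomes against 997 to 17894 in cells. The part that foreign RNA or nuclear RNA in the cell extracts has in the results below was not tested.

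As a class, these snoRNAs held a far smaller share of the reads in exosomes than in cells. Their reads made up 1.49%, 1.77%, 2.63%, 0.955% and 0.576% of the counted reads in exosome 1 to 5, and 9.03%, 19.6% and 18.8% in cell 1 to 3. Every exosome library lay below every cell library, and cell 1 held less than the other cell libraries. The means were 1.49% ± 0.792 (SD, n = 5) and 15.8% ± 5.87 (SD, n = 3), a 10.6-fold difference (exact permutation test, two-sided, p = 0.0357, the smallest that 56 splits allow). These are shares of a library and give no amount of snoRNA per vesicle. Fewer snoRNA molecules per vesicle, fewer vesicles holding them and more of other RNA in the exosome libraries cannot be told apart.

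The makeup of the class also differed. SNORD63, a guide for 28S ribosomal RNA cut from an intron of the chaperone gene HSPA9, was the most abundant member in each cell library and took 26.5%, 16.8% and 18.8% of the members' reads there. In exosomes it took 9.11% to 10.8%. The 10 most abundant members of each library held 64.2% to 78.6% of the members' reads in cells and 49.0% to 51.6% in exosomes, so the exosome profile was flatter, and the ranges did not overlap. Profiles of log2 CPM over the 112 members tested correlated at r = 0.907 to 0.981 between exosome libraries, 0.916 to 0.943 between cell libraries and 0.741 to 0.859 between an exosome and a cell library. These describe the libraries only, since members of 1 library share its scaling and depth.

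**Figure D1:**
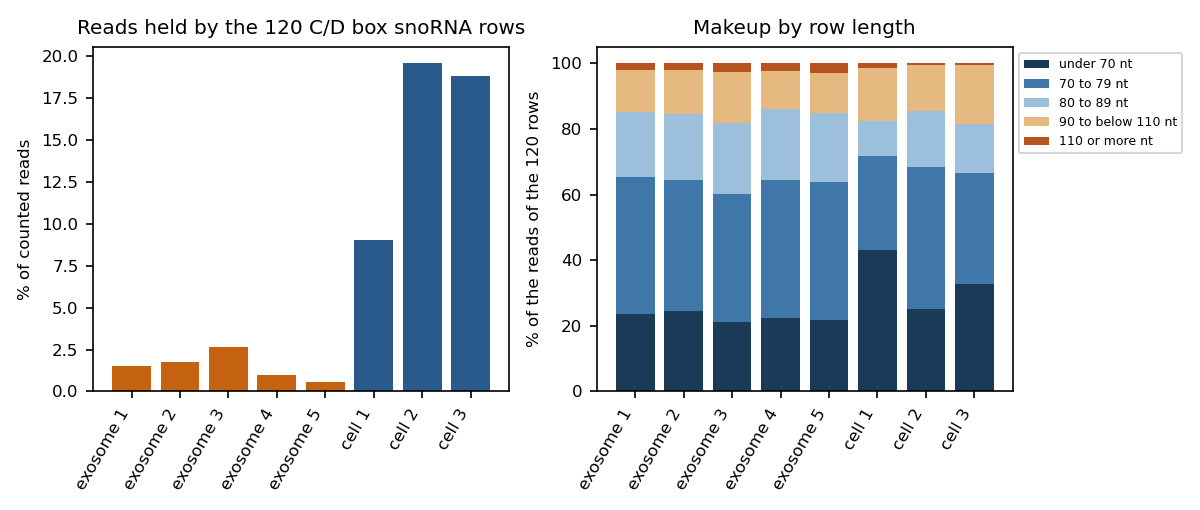
Left, percent of all counted reads held by the 120 C/D box snoRNA rows in each library (exosome orange, cell blue). Right, how the reads of those 120 rows divide over 5 classes of row length. The exosome libraries sit at 0.576% to 2.63% and the cell libraries at 9.03% to 19.6%. Rows under 70 nt hold a larger slice in the cell libraries, though cell 2 (25.0%) lies just above exosome 2 (24.4%).

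Member by member, 94 of the 112 tested fell in exosomes, 1 rose and 17 did not pass the test (edgeR quasi-likelihood test, Benjamini-Hochberg adjusted p under 0.05 over the 1178 rows tested). In the whole table, 43.0% of the rows tested passed this rule, 22.3% as lower and 20.7% as higher. The median log2 fold change was -3.02 over the members and -0.09 over all rows tested. Of the members that fell, 28 did so by at least 16-fold, 54 by 4- to 16-fold and 12 by less. In 87 of the 112, the CPM of every exosome library lay below that of every cell library, against 20.1% of all rows tested. Leaving out 1 library at a time kept 74 of the 95 calls in each of the 8 fits. Without cell 3, 18 calls were lost, and without exosome 4, 15.

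Several of the most abundant members were among those with the deepest falls. Abundance was ranked by the mean of the exosome and cell means, so the ranking shares its cell libraries with the fold change. SNORD63 stood at 1162, 1761, 1866, 613 and 1002 CPM in the exosome libraries and at 16828, 59531 and 39094 in the cell libraries. It fell 30.0-fold (log2 -4.91, SE 0.58, edgeR adjusted p = 2.83e-05) with no overlap. SNORD104, from the non-coding host SNHG25, was at 483 to 678 CPM in exosomes and at 1677, 40321 and 10227 in cells. Its exosome values sat within a narrow band while its cell values were far apart, and the size of its fall depended on cell 2: log2 -4.89 (SE 0.74, edgeR adjusted p = 0.000174) with all libraries, -3.37 without that one and -5.50 without cell 1. SNORD43, a guide for 18S ribosomal RNA from RPL3, was at 160 to 492 CPM in exosomes and 6231 to 13460 in cells (log2 -5.09, SE 0.57, edgeR adjusted p = 2.12e-05).

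Per length, SNORD63, SNORD18A and SNORD104 led in both groups. In cells, SNORD63 had a mean of 56595 CPM per 100 nt, SNORD18A (RPL4) 26657, SNORD104 24869, SNORD88C 17624, SNORD55 17138 and SNORD43 16966. In exosomes, SNORD63 had 1884 CPM per 100 nt, SNORD18A 1631, SNORD104 837, SNORD55 797, SNORD43 497 and SNORD88C 287. In both orders the values of neighbours among these 6 overlapped. The other members of the 10 most abundant were SNORD102 (RPL21), SNORD59A (ATP5F1B), SNORD127 (PRPF39) and SNORD12 (ZFAS1), at log2 -5.30, -4.44, -4.17 and -4.63. Cell 2 set much of these sizes: without it, the log2 values were -4.44 for SNORD102, -2.88 for SNORD59A, -2.52 for SNORD127, -3.05 for SNORD18A and -3.52 for SNORD55, against -4.03 and -4.43 for the latter pair with all libraries. Without cell 1, SNORD55 and SNORD127 were at -5.02 and -4.77, and without exosome 4, SNORD102 was at -4.71. SNORD12 moved most without cell 3, to -3.76. All kept their call in each fit that left out 1 library.

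Large falls also occurred in members of low abundance. SNORD98 (CCAR1), an 18S guide, was at 2.58 to 4.91 CPM in exosomes and at 121, 117 and 257 in cells (log2 -5.40, and -4.59 without cell 3). SNORD48 (C6orf48), a 28S guide often used as a reference gene in small RNA assays, was at 2.85 to 7.27 CPM in exosomes and at 109.5, 440 and 72.3 in cells (log2 -5.34, and -4.30 without cell 2). SNORD4A (RPL23A) and SNORD96A (RACK1), the latter a guide for 5.8S ribosomal RNA, fell by 5.24 and 5.12 on the log2 scale, and SNORD4A stood at log2 -4.39 without cell 3. No exosome library of these reached the level of any cell library.

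A smaller set was not called in either direction, which does not show that its members kept their level. The 17 members that did not pass the test had log2 fold changes from -1.99 to 0.06, and the groups overlapped for 14 of them. The other 3, SNORD7, SNORD10 and SNORD97, had every exosome library below every cell library. SNORD68, from an intron of RPL13, was the most abundant: 211, 299, 383, 116 and 295 CPM in exosomes and 314, 356 and 202 in cells (log2 -0.16, SE 0.52, edgeR adjusted p = 0.831). SNORD41, from the nuclear import gene TNPO2, was at 131, 88.9, 151, 62.6 and 186 CPM in exosomes and at 125, 199 and 77.9 in cells (log2 -0.11, SE 0.54, edgeR adjusted p = 0.886). The groups overlapped for both. Their means were 8597 and 3815 counts in exosome libraries, and what limited the calls was not tested. The other abundant members without a call were SNORD33, SNORD14C and SNORD83B, each of which shares its host with members that fell.

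SNORD89 was the only member that rose. It was at 42.1, 15.7, 175, 32.6 and 91.7 CPM in exosomes and at 10.1, 6.29 and 16.7 in cells. Exosome 2 lay just under cell 3, so the groups overlapped, and exosome 3 was the highest. The fold change was 6.45 (log2 2.69, SE 0.78, edgeR adjusted p = 0.0113). Without cell 2 it no longer passed the test (log2 2.33, adjusted p = 0.055), and without cell 3 it was log2 3.41. SNORD89 was named because its values were seen to go against the rest.

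**Figure D2:**
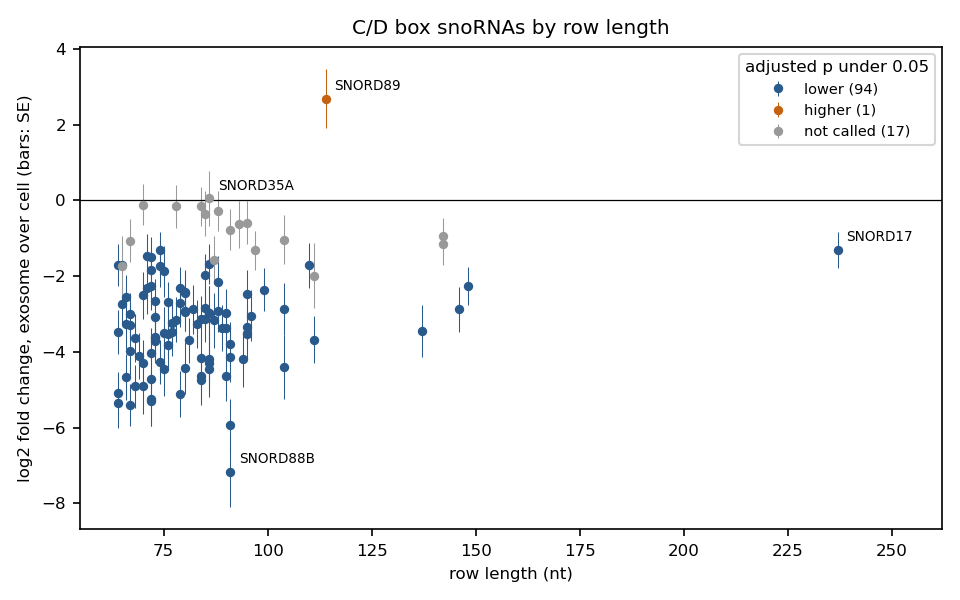
Log2 fold change (exosome over cell, edgeR) of the 112 members tested against row length in nt, with bars of 1 standard error, blue for lower, orange for higher and grey for not called. Most points lie below 0 at each length, SNORD89 stands alone at 2.69, and SNORD88B is the lowest at -7.16.

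Grouped by host gene, the fall was general and its size differed. Of the members, 106 lay in protein-coding genes and 12 in non-coding ones, over 69 hosts in all, and no host was found for SNORD32B and SNORD45. In the 28 hosts with at least 2 members, the members' CPM were summed per library, since they share a transcript. Every exosome library lay below every cell library for 27 of these sums (96.4%), against 20.1% of all single rows tested. These 27 passed an exact permutation test (two-sided, adjusted p = 0.0370 over the hosts). All 27 had the smallest p that the design allows, so their adjusted p depends on how many hosts reach it. The exception was RPS13, with 6.22 to 20.2 CPM in exosomes and 55.6, 18.3 and 150 in cells (exact permutation test, adjusted p = 0.0714). Without the most abundant member of each host, the groups did not overlap in 20 of the 28 hosts, so some sums rest on that member.

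C19orf48 had the largest difference between group means, at 271 ± 125 CPM (SD, n = 5) in exosomes and 16245 ± 12724 (SD, n = 3) in cells, a mean log2 difference of -5.81. RPL3 followed at log2 -4.69, then ZFAS1, a non-coding host, at -4.18, and RACK1, which encodes a scaffold protein of the small ribosomal subunit, at -4.15. HSPA8, the gene for the heat shock cognate chaperone, was at the other end: 48.7 to 125 CPM in exosomes and 156 to 286 in cells, log2 -1.18. WDR43 (-1.56), CHD8 (-1.60) and NOP56 (-1.90) came next. NOP56 and NOP58, which encode core proteins of the C/D particle itself, hold 4 and 3 members, and all 7 fell. Several of those calls were weak. In NOP56, SNORD110 lost its call in 5 of the 8 fits that left out 1 library, SNORD56 in 2 and SNORD57 in 1. In NOP58, SNORD11 lost its call in 3 of these fits and SNORD11B in 1. SNORD110 was at log2 -1.87 with all libraries, -0.43 without cell 2 and -1.26 without exosome 4. Without cell 3, SNORD56 was at -0.77 against -2.32, SNORD11 at -1.21 against -2.14 and SNORD11B at -1.50 against -2.97.

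**Figure D3:**
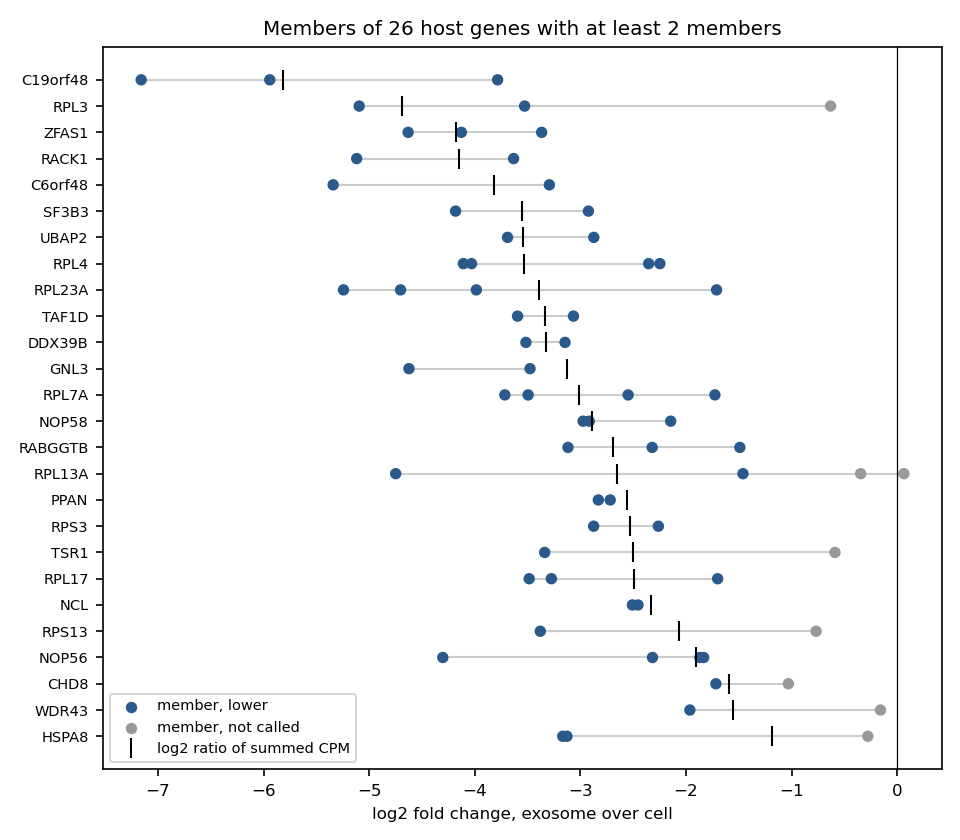
Log2 fold change (exosome over cell, horizontal axis) of each tested member in 26 of the 28 host genes with at least 2 members (vertical axis, ordered by the mean log2 difference of the summed CPM, black tick). Blue points passed the test as lower and grey points did not; RPL13A and RPL3 span the widest ranges.

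Within a host, members differed in the size of the fall. The range of log2 fold changes inside a host had a median of 1.59 over the 28 hosts and was widest in RPL13A at 4.81. There, SNORD32A was at 25.3, 67.8, 52.8, 18.8 and 35.9 CPM in exosomes and at 330, 829 and 2076 in cells, a 26.9-fold fall (log2 -4.75, SE 0.66, edgeR adjusted p = 9.08e-05) that was log2 -3.46 without cell 3. SNORD33, which lies next downstream in the gene, was at 80.3, 41.5, 246, 58.6 and 107.5 CPM in exosomes and at 82.7, 142 and 182 in cells (log2 -0.35, SE 0.60, edgeR adjusted p = 0.677, and log2 0.28 without cell 3). SNORD32A was therefore the most abundant of the RPL13A snoRNAs in every cell library, and SNORD33 in exosome libraries 1, 3, 4 and 5.

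SNORD34, the shortest of the RPL13A set, was at 10.0 to 37.7 CPM in exosomes and at 65.8, 26.1 and 67.6 in cells, with cell 2 inside the exosome range (log2 -1.46, SE 0.56, edgeR adjusted p = 0.0461). Its call was lost in 6 of the 8 fits that left out 1 library, among them the fit without cell 3 (log2 -0.96). SNORD35A was at 6.16 to 35.7 CPM in exosomes and at 7.55, 6.72 and 37.8 in cells (log2 0.06, SE 0.73, edgeR adjusted p = 0.956), and without cell 3 at log2 1.68 with no call. The RPL13A snoRNAs are known from work on lipid stress, in which they act outside the nucleolus, and all of them pair with ribosomal RNA. Both boxes were present in each of the 4 sequences given above.

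RPL3 showed a like spread. SNORD43 fell 34.2-fold and SNORD83A 11.5-fold (log2 -3.53, SE 0.67, edgeR adjusted p = 0.000834, and -2.50 without cell 3). SNORD83B, which matched SNORD83A at 78.4% of aligned bases, was at 28.1, 91.1, 44.9, 16.02 and 48.9 CPM in exosomes and at 29.03, 127 and 56.5 in cells (log2 -0.63, SE 0.62, edgeR adjusted p = 0.445, and log2 0.03 without cell 2). The exosome and cell ranges of SNORD83B overlapped.

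In C19orf48 all 3 members fell, by unequal amounts. SNORD88C was the abundant copy, at 358, 312, 209, 67.2 and 359 CPM in exosomes and 6359, 30414 and 11341 in cells (log2 -5.94, SE 0.69, edgeR adjusted p = 2.73e-05, with -5.18 without cell 2 and -5.29 without exosome 4). SNORD88B was at 0.951, 0.827, 0.767, 0.0293 and 0 CPM in exosomes and 56.1, 114 and 60.2 in cells (log2 -7.16, SE 0.94, edgeR adjusted p = 6.41e-05, and -6.51 without exosome 4). SNORD88A was at 5.37 to 15.2 CPM in exosomes and 61.3 to 224 in cells (log2 -3.78, SE 0.58, edgeR adjusted p = 0.00018, and -2.78 without cell 3). The copies are so alike that how reads were divided among them is uncertain.

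The U14 snoRNAs, which are needed for cleavage of the 18S precursor as well as for methylation, come as 5 copies in HSPA8 and RPS13. SNORD14C of HSPA8 was at 89.6, 105, 109.4, 42.9 and 74.9 CPM in exosomes and 86.9, 152 and 68.2 in cells (log2 -0.28, SE 0.52, edgeR adjusted p = 0.699). SNORD14E of the same gene was at 5.75 to 19.8 CPM in exosomes and 66.0, 45.1 and 214 in cells (log2 -3.13, SE 0.61, edgeR adjusted p = 0.00097, and -1.85 without cell 3). SNORD14D fell as well (log2 -3.17, with -2.48 without exosome 4 and -3.83 without exosome 5), as did SNORD14B of RPS13 (log2 -3.38, and -1.99 without cell 3), while SNORD14A of RPS13 was at log2 -0.77 (edgeR adjusted p = 0.274), and at 0.13 without cell 3. The 5 copies matched each other at 75.3% to 85.9% of aligned bases, so reads may be shared between them. SNORD14C made up most of the HSPA8 sum in exosomes.

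**Figure D4:**
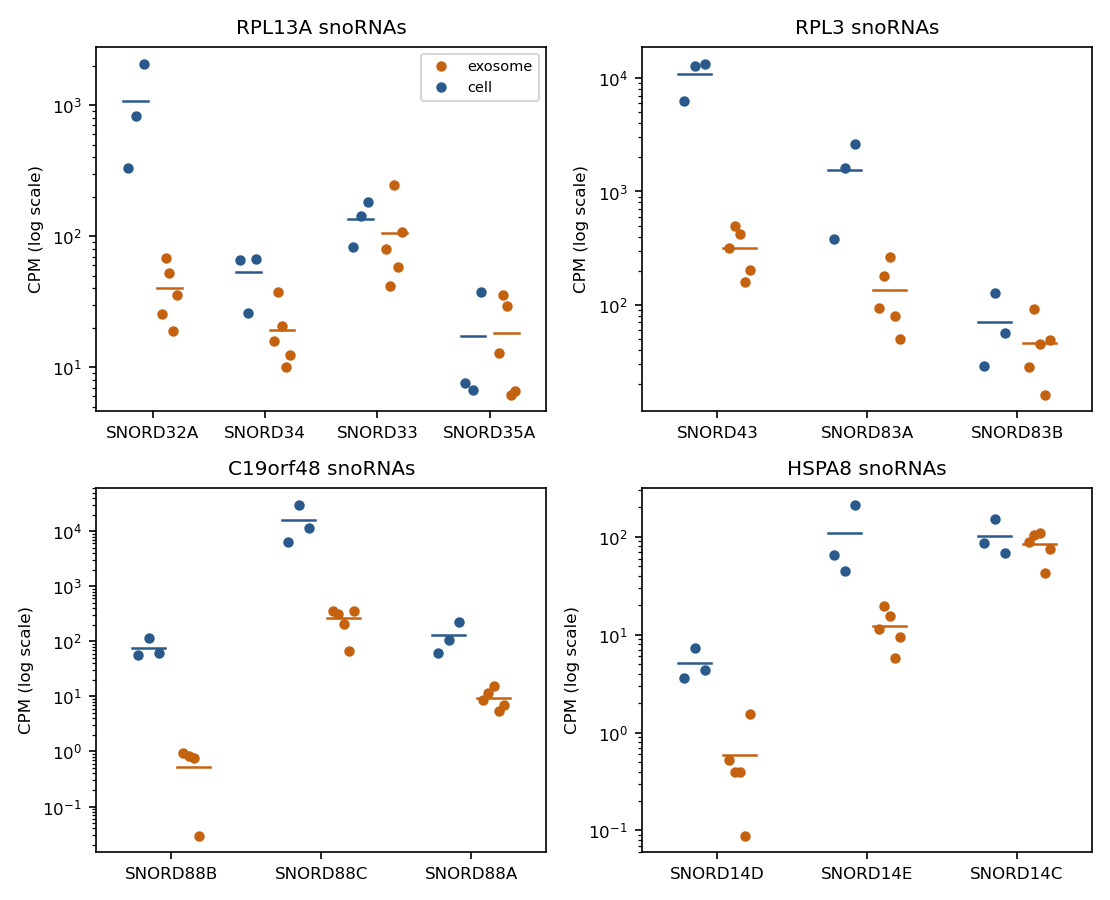
CPM (log scale) of each tested snoRNA of RPL13A, RPL3, C19orf48 and HSPA8 in the 3 cell (blue) and 5 exosome (orange) libraries, with a line at each group mean. SNORD33, SNORD34, SNORD35A, SNORD83B and SNORD14C overlap between groups, and the other members drawn are apart; the value of 0 for SNORD88B in exosome 5 cannot be drawn on this axis.

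To compare members of a host free of scaling between libraries, the log2 ratio of its 2 most abundant members was taken in each library. In 9 of the 28 hosts the ratio did not overlap between exosome and cell libraries (32.1%): GNL3, HSPA8, RABGGTB, RACK1, RPL13A, RPL23A, RPL3, TSR1 and WDR43. None passed the exact permutation test after adjustment over the 28 hosts (smallest adjusted p = 0.111), and 9 had the smallest unadjusted p that the design allows (0.0357). With 9 of 28 ratios at this floor none could pass, whatever the size of its shift. The adjusted values therefore do not show that the ratios were unchanged. The largest shift was in RPL13A, where the log2 ratio of SNORD32A to SNORD33 was -1.67, 0.71, -2.22, -1.64 and -1.58 in exosomes and 2.00, 2.55 and 3.51 in cells, a 15.6-fold change. In HSPA8 the ratio of SNORD14C to SNORD14E was 2.41 to 2.98 in exosomes and 0.40, 1.75 and -1.65 in cells. In TSR1 the ratio of SNORD91A to SNORD91B was -0.10 to 1.01 in exosomes and 2.71 to 3.62 in cells, and in RPL23A the ratio of SNORD42B to SNORD42A was -1.24 to 0.81 and 1.76 to 2.80.

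The other hosts with at least 3 members held together more closely or spread in steps. RPL23A ran from SNORD4A (log2 -5.24) through SNORD4B (-4.70) and SNORD42B (-3.98) to SNORD42A (-1.71), which lost its call in 4 of the 8 fits with a library left out. Without cell 3, SNORD4A, SNORD4B and SNORD42B were at -4.39, -3.89 and -3.19. RPL4, a ribosomal protein gene with 4 members, had all 4 lower, at log2 -4.11 to -2.25. SNORD18B lost its call in 2 of the 8 fits, among them the fit without cell 3 (-0.87), where SNORD18C was at -2.89. RPL7A had 4 of 4 lower (-3.72 to -1.73), with SNORD24 at -1.99 in place of -3.49 without cell 3. SNORD36B lost its call in 4 of the 8 fits, among them the fit without cell 3 (-1.04). SNORD36C of RPL7A was at -2.55, at -1.93 without exosome 4 and at -1.96 without cell 2. RPL17 had 3 of 3 lower, with SNORD58A the weakest at -1.70 and without a call in 4 of the 8 fits, and SNORD58B and SNORD58C at -2.34 and -2.74 without cell 2 in place of -3.27 and -3.48. In RABGGTB, SNORD45A (-3.12, and -2.46 without cell 3) and SNORD45C (-2.32) were below SNORD45B (-1.49), whose call was lost in 6 of the 8 fits. In GNL3, which encodes the nucleolar protein nucleostemin, SNORD19B was at -4.62 and SNORD69 at -3.48, and at -3.81 and -2.47 without cell 2.

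By kind of host, 29 of the 37 members in ribosomal protein genes fell (median log2 -2.87 over the 37), as did 56 of the 65 tested in other protein-coding genes (median -3.05, with SNORD89 higher) and 9 of the 10 tested in non-coding genes (median -3.75). Among the last, the members of ZFAS1 were at log2 -4.63 to -3.37, and the smallest of these, of SNORD12C, was -2.43 without cell 3. SNORD93 (SNHG26) had the smallest called fall there, at log2 -1.31, and lost its call in 7 of the 8 fits with a library left out, while SNORD7, in LINC02001, did not pass the test. The 3 kinds were not compared by a test.

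By row length, calls of lower were made in each class, and the median was nearest to 0 in the longest rows. It was called for 16 of 18 members under 70 nt (median log2 -3.39), 32 of 34 of 70 to 79 nt (-3.19), 25 of 30 of 80 to 89 nt (-2.95), 15 of 20 from 90 to below 110 nt (-3.19) and 6 of 10 of 110 nt or more (-1.85). Over the 112 members, log2 fold change and row length correlated at r = 0.245 (Spearman rho 0.214), and at r = 0.138 over the 103 rows of up to 110 nt. With GC content, r was -0.07 over 106 members, and with log2 mean CPM in cells -0.54, a value that shares its cell libraries with the fold change. These are correlations across snoRNAs within 1 set of libraries.

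As shares of the members' own reads, rows under 70 nt held 22.7% ± 1.38 (SD, n = 5) in exosomes and 33.7% ± 9.13 (SD, n = 3) in cells, rows of 80 to 89 nt 20.9% ± 0.845 and 14.3% ± 3.22, and rows of 110 nt or more 2.38% ± 0.39 and 0.745% ± 0.464. Each of these 3 classes had groups that did not overlap (exact permutation test, two-sided, p = 0.0357), but none passed after adjustment over the 5 classes (adjusted p = 0.0595). With 3 of 5 classes at the smallest p that the design allows, none could pass, whatever the size of its difference. For rows under 70 nt the gap was narrow, with 25.0% in cell 2 and 24.4% in exosome 2. The 70 to 79 nt class (41.0% and 35.1%) and the class from 90 to below 110 nt (13.1% and 16.1%) had adjusted p of 0.214 and 0.0893 in the exact test. Leaving the 3 most abundant members out of the sums brought the difference for rows under 70 nt from -11.0 to -4.40 percentage points and that for 80 to 89 nt from 6.52 to 3.82. It turned the sign for 70 to 79 nt, from 5.86 to -2.62, and for 90 to below 110 nt, from -2.98 to 1.40. Dividing reads by row length brought the difference for rows of 110 nt or more from 1.64 to 0.882. Without cell 1, rows under 70 nt were at -6.28 and those of 70 to 79 nt at 2.51, and without cell 2 the latter were at 9.99. The longest rows were SNORD17 (237 nt, SNX5), a 28S guide, at 41.9 to 81.3 CPM in exosomes and 186, 146 and 138 in cells (log2 -1.30), and SNORD15A and SNORD15B of RPS3 (148 and 146 nt), at log2 -2.26 and -2.87. SNORD17 lost its call in 6 of the 8 fits with a library left out, and SNORD15B was at -2.29 without cell 3. The 237 nt row of SNORD17 is longer than the RNA under 200 nt that was extracted. What length of RNA its reads came from was not tested.

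Part of the members are on lists by the RNA they guide. Among the listed guides with a row, 19 of 21 for 18S ribosomal RNA were lower (median log2 -2.51), 19 of 20 for 28S (-3.27) and both for 5.8S. Of the 6 guides for the spliceosomal U6 snRNA, among them SNORD10, which also guides 18S, 2 were lower (33.3%), with a median of -1.52. Over all rows tested, 22.3% were lower. SNORD94 (137 nt, PTCD3) was at 10.3 to 24.3 CPM in exosomes and at 29.5, 442 and 117 in cells (log2 -3.44, and -2.06 without cell 2). SNORD8 (CHD8) was at log2 -1.72 and lost its call in 4 of 8 fits, with -0.79 without cell 3. SNORD7, SNORD9, SNORD10 and SNORD67 were at log2 -1.31, -1.03, -0.95 and -1.99 with no call, and SNORD7 (edgeR adjusted p = 0.0515) and SNORD10 nonetheless had every exosome library below every cell library. SNORD7 passed the test without cell 1, and SNORD67 passed without exosome 3 and without exosome 5. Without cell 3, SNORD67 was at -1.17 and SNORD9 at 0.27, neither with a call. The U6 guides have rows of 97 to 142 nt, so target and length cannot be told apart in them, and the lists were not compared by a test.

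Other snoRNA classes in the same libraries give the setting, beside the 22.3% of all rows tested that were lower. Lower calls were made for 34 of 82 H/ACA snoRNAs tested (median log2 -1.51), 7 of 18 small Cajal body RNAs (-1.33), 2 of 6 U3, U8 and U13 rows (-0.95), 5 of 25 imprinted SNORD rows (-0.50) and 8 of 14 rows of non-coding snoRNA host genes (-1.86). SNORD2, SNORD100 and SNORD101, left out by name, were all lower (-5.24). The members' median was below each of these apart from the last, and the classes were not compared by a test.

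The members whose log2 CPM over the 8 libraries lay closest to the class sum were SNORD38A (r = 0.995), SNORD58C (r = 0.992) and SNORD102 (r = 0.991). That pattern is the exosome to cell difference with cell 1 below the other cell libraries. Of the 112 members, 82 had their lowest cell value in cell 1 and 86 their lowest exosome value in exosome 4 after scaling, although exosome 5 had the lowest unscaled share. The spread within groups was wide, with a median coefficient of variation of 46.3% over exosome and 63.9% over cell libraries.

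A further 8 members were too low to test. SNORD123, SNORD45 and SNORD112 had no read in any library, and SNORD112 lies in the imprinted 14q32 region although its name keeps it in the group. SNORD19 had 15 reads and SNORD56B 3, all from cells, and SNORD32B had 1 from exosomes and 2 from cells. SNORD23 had 16 reads in exosomes and 100 in cells, and SNORD96B 11 and 79. SNORD96B matched SNORD96A at 92.4% of aligned bases and SNORD32B matched SNORD32A at 89.3%, so their few reads may belong to those copies. SNORD103A and SNORD103B had the same count in every library and stand for 1 measurement (log2 -2.96, and -2.25 without cell 3).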

How the data were processed

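Each library has 1 column of raw counts per row, as the authors deposited it, and the file headers, in featureCounts' layout, also give row lengths and GRCh37 positions. The tools listed in the submitters' processing notes are cutadapt 1.1, STAR, DESeq2 1.8.2 and featureCounts, with the build GRCh37 (also named hg19 and hs37d5). Strand and multi-mapping settings are not given in sources used here, so counts of near-identical copies are uncertain.

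The members, lists and tests were chosen with earlier results of these data known. Counts of all 2709 rows went into a quasi-likelihood fit (edgeR 4.0.16, R 4.3.3) after TMM scaling (factors from 0.524 to 1.46) and edgeR's default low-count filter (10 as its minimum count). CPM are counts per 1000000 of the scaled library size, and adjusted p-values are Benjamini-Hochberg over the 1178 rows tested. On simulated counts with known changes, this test recovered 45% of rows changed by 2 on the log2 scale and 81% of those changed by 3. Shares, host sums, length classes and ratios (pseudocount 0.5) were compared with exact permutation tests over libraries in scipy 1.17.1, for which 5 against 3 libraries allow no p under 0.0357. Hosts are the same-strand GENCODE v29 genes that hold the row or, for 5 rows, the RefSeq genes that hold it, for which strand was not checked. Identity was computed over global alignments. The values of 2 hosts are not reported here.

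Named members are the 10 most abundant, the 10 with the largest change in either direction (groups apart, and the higher with a mean of 50 counts or more), the 5 most abundant without a call, those in hosts with 3 or more members, the 3 shortest and 3 longest, the U6 guides and the 3 most like the class sum. SNORD89, SNORD14A, SNORD14B, SNORD91A, SNORD91B, SNORD93 and SNORD97 were named after their values were seen. Alternatives were DESeq2 1.42.0, limma-voom 3.58.1, other scalings and filters, near-identical rows counted once, the replicate block and leaving out each library.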

Additional observations from a re-analysis of the deposited data

Results flagged for a closer look

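In 6 of the 133 groups of exosome values examined for a single library far from the other 4 (Dixon's criterion, which chance meets in about 1 of 20 groups), 1 library stood apart. SNORD102 was at 98.3 CPM in exosome 4 against 254 to 284 in the others, and SNORD58C at 86.7 CPM in the same library against 188 to 215. Most members were lowest in exosome 4 after scaling. The log2 ratio of SNORD32A to SNORD33 in RPL13A was 0.708 in exosome 2 against -2.22 to -1.58 in the other exosome libraries, still below the 3 cell libraries. The log2 ratio of SNORD14C to SNORD14E in HSPA8 was 2.41 in exosome 2 against 2.82 to 2.98. In PPAN the log2 ratio of SNORD105B to SNORD105 was 3.57 in exosome 3 against 1.84 to 2.34, and in WDR43 that of SNORD92 to SNORD53 was 0.710 in exosome 5 against 1.86 to 2.23.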

How the results depend on the processing

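The count of members lower in exosomes ran from 76 (without cell 3) to 97 (DESeq2) around the 94 reported, and was 81 under total count scaling, 88 under upper-quartile scaling and 91 with near-identical rows counted once. Leaving out 1 library gave 76 to 95. One member was higher under each setting except without cell 2, which left 0 (edgeR). In all, 73 of the 95 calls were made under every setting. Scaling moved the median log2 fold change of all rows from -0.09 to 0.19 (total count) and 0.25 (upper quartile), and relative to that median the members stood at -2.94, -2.78 and -2.996.

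The members' share of reads was 10.6-fold lower in exosomes, and 7.32-fold lower without ribosomal RNA rows in the total. It was 8.92-fold lower without the most abundant row of each library and 9.24-fold lower with near-identical rows counted once. As a difference, it was -14.3 percentage points, -18.5 without ribosomal RNA rows in the total, and -12.4 to -17.7 with a library left out. Leaving out 1 library allows no exact p under 0.0571, so those fits give values without a test. Host sums were lower in 27 hosts, 25 under total count scaling and 20 without the most abundant member of each host. The ratios that did not overlap numbered 9, 11 with a pseudocount of 5, and 9 to 14 with a library left out, the 14 without exosome 5 and without cell 2.

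The design text says that 3 exosome samples have paired cells but does not name them. Deviations of exosome and cell libraries with the same number correlated at 0.03, -0.05 and 0.17, so the numbers were not taken as pairs. With the replicate block on exosome and cell 1 to 3, 78 members were lower and 1 higher, against 83 and 1 in the same 6 libraries without the block. Cell 1 correlated best with exosome 4 (0.25).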
